A study of Mus musculus with 12 samples.

Results

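The PDGF (platelet-derived growth factor) family described here comprises 4 ligand genes, Pdgfa, Pdgfb, Pdgfc and Pdgfd, and 2 receptor genes, Pdgfra and Pdgfrb. They were picked by symbol through their Ensembl gene identifiers, all 6 were found among the 19083 genes of the table, and all 6 passed the filter on low values. PDGF ligands are secreted dimers that bring together receptor tyrosine kinases on the surface of neighbouring cells. PDGF-AA and PDGF-CC act through PDGFRα, which marks the neural crest-derived mesenchyme of the face, whereas PDGF-BB acts through both receptors and PDGF-DD mainly through PDGFRβ, the receptor of pericytes and other mural cells. Mouse embryos lacking Pdgfc or Pdgfra can develop cleft palate, and Pax9 is a transcription factor that the palatal mesenchyme needs for the shelves to grow and close.

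Messenger RNA was measured in micro-dissected palatal shelves of 12 C57BL/6 mouse embryos labelled embryonic day 14, with 1 library per embryo and 3 embryos in each of 4 groups. Untreated mutants were Pax9-/- embryos, and untreated controls were 1 Pax9+/+ and 2 Pax9+/- littermates. WAY mutants were Pax9-/- embryos of Pax9+/- dams given WAY-262611, which activates Wnt signalling by blocking its secreted inhibitor Dkk1, by daily injection into the tail vein from embryonic day 10.5 to 14. WAY controls were 2 Pax9+/+ and 1 Pax9+/- embryos of such dams. The labels name no Cre driver or transgene, and 3 of the 6 controls carry 1 mutant allele. The sample titles carry a number taken here as the litter, with 2 litters in each treatment, so a treatment difference cannot be told apart from a difference between litters.

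Each library yielded 36.8 to 49.8 M recovered reads. Pax9 itself had 5.9 ± 0.848 FPKM in Pax9-/- (SD, n = 6), 21.4 ± 1.28 FPKM in Pax9+/- (SD, n = 3) and 32.0 ± 4.82 FPKM in Pax9+/+ embryos (SD, n = 3), in the order of the labels. FPKM are reads divided by gene length and by the size of the library. The column names begin with 1 of 2 prefixes, shared by 8 libraries (1 untreated and 1 WAY litter, 2 embryos of each group) and by 4 libraries (the other untreated and WAY litters, 1 embryo of each group). The first principal component held 52.5% of the variance over the genes tested. Between embryos of different groups, deviations from group means correlated by a median of 0.49 across litters within a prefix, and of -0.62 between prefixes. Deviations cancel within each group, of 2 embryos of the 8-library and 1 of the 4-library prefix, so the negative value follows from the positive one. Because of the correlation within a prefix, the differences below are also given within prefix where the prefix bears on them. Of the 9 palatal mesenchyme markers checked, 9 had at least 1 FPKM in at least 3 libraries, as did 10 of 10 oral epithelium, 8 of 8 endothelial and 8 of 8 mural markers. All 9 mesenchyme markers, which include Pax9, summed to 500 to 726 FPKM per library.

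The ligand genes are recognised by a shared cysteine motif in the growth factor domain, and the coding DNA of its opening stretch is shown because it separates the classical ligands from the later-found pair. The 33 bases of each gene, from the GENCODE M21 transcripts on build GRCm38 (mm10), are given 5′ to 3′ on the coding strand with the 2 conserved cysteine codons in capitals.
Pdgfa: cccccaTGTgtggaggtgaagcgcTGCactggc
Pdgfb: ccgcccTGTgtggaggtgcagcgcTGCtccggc
Pdgfc: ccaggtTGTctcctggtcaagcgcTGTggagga
Pdgfd: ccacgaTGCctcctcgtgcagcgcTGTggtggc

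Pdgfa and Pdgfb had the same base at 28 of these 33 positions (84.8%), and Pdgfc and Pdgfd at 25 (75.8%), against 54.5% to 63.6% between the pairs. The stretches lie at chr5:138986250-138986282 on the minus strand (exon 4 of 7 of Pdgfa), at chr15:80001742-80001774 on the minus strand (exon 4 of 7 of Pdgfb), at chr3:81209154-81209186 on the plus strand (exon 5 of 6 of Pdgfc) and at chr9:6359810-6359842 on the plus strand (exon 6 of 7 of Pdgfd). The longest annotated proteins with the motif have 211 residues for PDGF-A, 241 for PDGF-B, 345 for PDGF-C and 370 for PDGF-D, the last 2 carrying an additional CUB domain that must be cut off to release the active factor. No stretch of 25 bases was shared between protein-coding transcripts of any pair of the 6 genes on either strand. Pdgfa overlaps the opposite-strand gene 6330403L08Rik over 813 of its 3119 exonic bases, and since the strand setting is not given, reads there cannot be assigned to either gene. 6330403L08Rik had 2.39 to 3.53 FPKM. The exonic overlap was 652 of 10024 bases for Pdgfra, 147 of 5089 for Pdgfc and 0 for the others, Pdgfra as a whole lying at chr5:75152292-75198215 on the plus strand.

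The 6 genes kept nearly the same order of length-scaled levels in every embryo. Pdgfra was the highest, with 62.5 to 97.9 FPKM over the 12 libraries, followed by Pdgfrb with 44.7 to 59.9 FPKM. Pdgfa had 16.8 to 22.8 FPKM and Pdgfc 12.3 to 24.9 FPKM, and the ranges of these 2 overlapped. Pdgfb had 5.05 to 6.66 FPKM and Pdgfd 2.61 to 4.08 FPKM. Receptor transcripts were thus above every ligand in 12 of 12 embryos, and Pdgfra lay above 96.3% and Pdgfd above 23.7% of the genes tested by mean log2 level. The recovered reads behind these values ran from 316 for Pdgfd to 32926 for Pdgfra in 1 library. In bulk tissue, fewer cells of a type and less RNA per cell cannot be told apart.

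**Figure D1:**
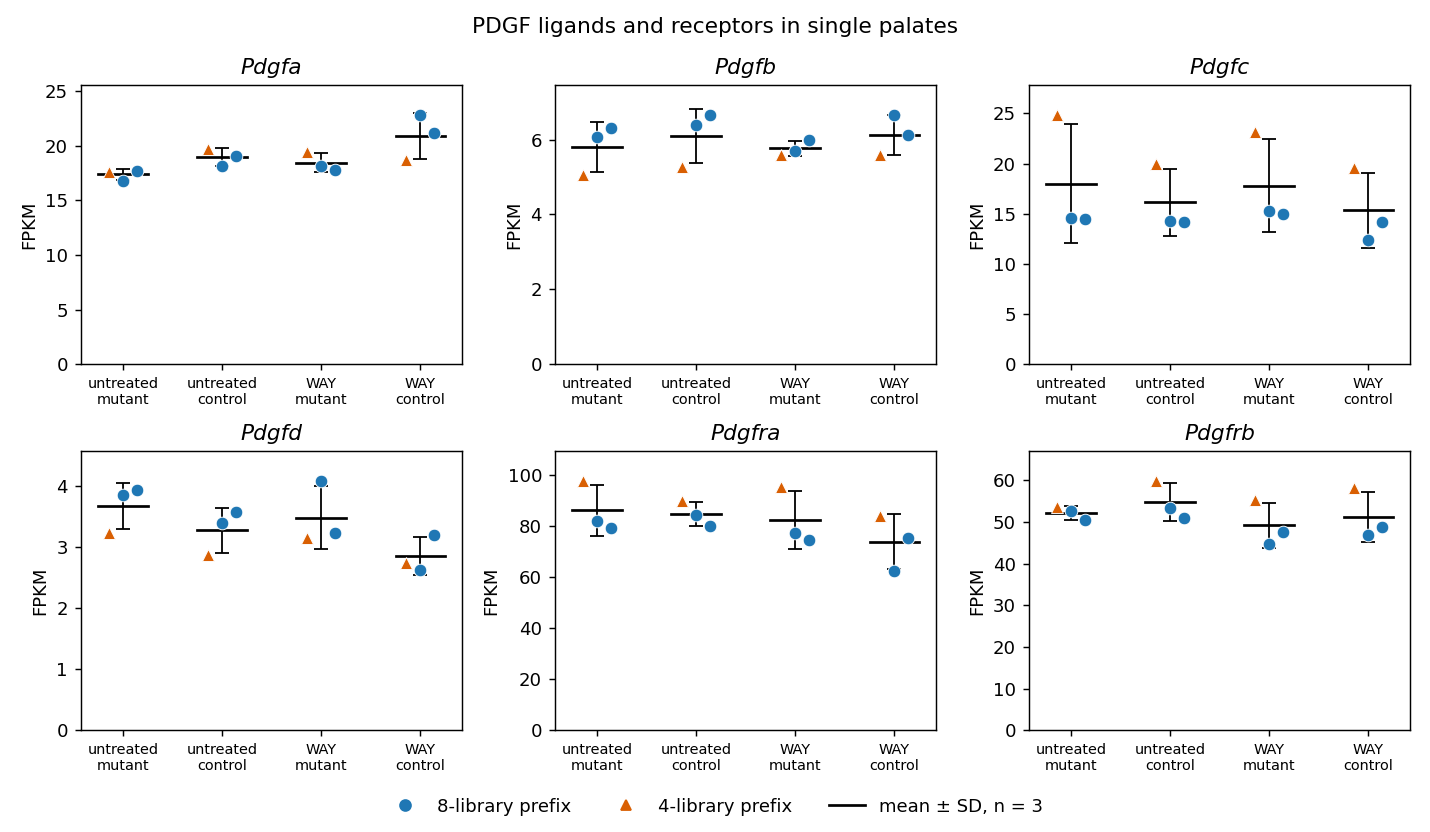
FPKM of the 6 genes (vertical axes, starting at 0) in untreated mutants, untreated controls, WAY mutants and WAY controls. Circles are the 8 libraries of the larger column-name prefix, triangles the 4 of the smaller, and bars show the mean ± SD of 3 embryos. For Pdgfc the triangles lie at 19.5 to 24.9 FPKM and the circles at 12.3 to 15.3 FPKM in all groups.

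The first question is whether loss of Pax9 altered the family. In limma fitted to all 14107 genes that passed the filter, 0 of the 6 genes passed an adjusted p of 0.05 in untreated embryos, where 13 genes passed (0.0922% of those tested), and 0 of 6 passed in WAY embryos, where 63 passed (0.447%). Over both treatments 0 of 6 passed, where 120 genes passed (0.851%). At an unadjusted p under 0.05 stood 0 of the 6 in untreated embryos, 1 (Pdgfa) in WAY embryos and 2 (Pdgfa and Pdgfd) over both, beside 531, 2644 and 2206 of the 14107 genes in the same comparisons. With the litter as a block, 74 genes passed in untreated embryos (0.525%), 1420 in WAY embryos (10.1%) and 1163 over both treatments (8.24%). Of the 6 genes again 0 passed in each comparison, and 0 in untreated embryos, 4 in WAY embryos and 3 over both stood at an unadjusted p under 0.05, beside 1316, 4674 and 4068 of all genes. With the prefix as a term 1 of 6, Pdgfc, passed over both treatments, where 1393 genes passed (9.87%).

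Among the receptors, Pdgfra had 97.9, 81.9 and 79.4 FPKM in untreated mutants, against 89.8, 84.6 and 80.1 FPKM in untreated controls. In WAY embryos it had 95.4, 77.5 and 74.7 FPKM in mutants, against 84.0, 62.5 and 75.3 FPKM in controls. In each group the highest value came from the 4-library prefix, and mutants and controls overlapped with either treatment. The log2 difference of mutants from controls over both treatments was 0.09 ± 0.09 (SE, n = 6 per side, adjusted p = 0.68 in limma), with a 95% interval of -0.11 to 0.29. The interval covers changes in either direction.

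Pdgfrb had 53.7, 52.6 and 50.4 FPKM in untreated mutants, against 59.9, 53.3 and 51.1 FPKM in untreated controls. It had 55.3, 44.7 and 47.6 FPKM in WAY mutants, against 58.2, 46.8 and 48.9 FPKM in WAY controls. The groups overlapped here too, with a log2 difference of -0.06 ± 0.07 over both treatments (SE, n = 6 per side, adjusted p = 0.73 in limma, 95% interval -0.22 to 0.09). The 8 mural cell markers summed to 139 to 163 FPKM in mutants, against 152 to 161 FPKM in controls, of the 8-library prefix, and to 193 to 199 FPKM in mutants, against 123 to 176 FPKM in controls, of the 4-library prefix; their part in the Pdgfrb values was not tested. Within each library, Pdgfra was 1.56 to 1.82 times Pdgfrb in the 6 mutants and 1.34 to 1.59 times in the 6 controls, with means of 1.67 ± 0.109 in mutants and 1.5 ± 0.0935 in controls (SD). The ranges of this ratio overlapped in untreated embryos (1.56 to 1.82 in mutants, 1.5 to 1.59 in controls) and did not in WAY embryos (1.57 to 1.73 in mutants, 1.34 to 1.54 in controls). The other ratio computed, Pdgfa to Pdgfc, overlapped in untreated embryos (0.709 to 1.22 in mutants, 0.987 to 1.35 in controls). It overlapped in WAY embryos too (0.839 to 1.19 in mutants, 0.958 to 1.85 in controls). Ratios of gene pairs outside the family were not computed.

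Pdgfa, whose product is made by many embryonic epithelia and acts on PDGFRα in the mesenchyme below, had the smallest spread between embryos of a group among the 6 genes (SD 0.086 on the log2 scale, against a median of 0.128 over all genes tested), though within the 8-library prefix Pdgfrb had 0.0489, Pdgfa 0.0527 and Pdgfb 0.054. It had 17.6, 16.8 and 17.7 FPKM in untreated mutants, against 19.7, 18.2 and 19.0 FPKM in untreated controls, and these did not overlap. In WAY embryos it had 19.4, 18.1 and 17.8 FPKM in mutants, against 18.7, 22.8 and 21.2 FPKM in controls, with an overlap through the 4-library prefix. Over both treatments the log2 difference was -0.15 ± 0.05 (SE, n = 6 per side, 95% interval -0.26 to -0.03), and it did not pass (adjusted p = 0.203 in limma, with the litter block 0.0896). Within the 8-library prefix Pdgfa had 16.8 to 18.1 FPKM in 4 mutants, against 18.2 to 22.8 FPKM in 4 controls, without overlap, and the difference was -0.19 ± 0.05 (SE, adjusted p = 0.075 in limma, where 3.25% of genes passed). In the 4-library prefix the difference was -0.16 in the untreated litter and 0.05 in the WAY litter, with 1 embryo per side. How many of all genes separate without overlap in untreated embryos, or in the 8-library prefix, was not counted.

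The sum of epithelial markers was lower in mutants of both prefixes. Keratin genes made up most of it, and Krt17 had means of 144 FPKM in untreated mutants and 221 FPKM in untreated controls. In limma over both treatments 0 of the 10 markers had a log2 difference above 0. As lower, 1 of the 10 passed, and 7 did with the prefix as a term. The 10 oral epithelium markers summed to 862 to 913 FPKM in mutants, against 986 to 1350 FPKM in controls, of the 8-library prefix. In the 4-library prefix they summed to 343 to 406 FPKM in mutants, against 468 to 555 FPKM in controls, and none of the 10 was at 0 in any group. Pdgfa itself was higher in the mutant of the 4-library WAY litter (19.4 FPKM, against 18.7 FPKM in its control), and its levels in the prefixes differed by 0.00147 in log2. Their part in the Pdgfa values was not tested. None of the 6 genes is among these markers.

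Pdgfc, a ligand whose loss by itself can cause cleft palate in mice, was the member that depended most on the prefix. It had 24.9, 14.6 and 14.5 FPKM in untreated mutants, against 20.0, 14.3 and 14.1 FPKM in untreated controls. It had 23.1, 15.3 and 14.95 FPKM in WAY mutants, against 19.5, 12.3 and 14.2 FPKM in WAY controls. The first value of each group is the embryo of the 4-library prefix, and it is the highest every time. With the prefixes pooled, the log2 difference of mutants from controls over both treatments was 0.16 ± 0.18 (SE, n = 6 per side, adjusted p = 0.71 in limma, 95% interval -0.23 to 0.56).

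Within each prefix, Pdgfc was higher in every mutant than in any control. The share of all genes that separate in this way, with so few embryos per side, was not counted. The 8-library prefix had 14.5 to 15.3 FPKM in 4 mutants and 12.3 to 14.3 FPKM in 4 controls, and the 4-library prefix had 23.1 and 24.9 FPKM in mutants and 19.5 and 20.0 FPKM in controls. With the prefix as a term the same difference of 0.16 had an SE of 0.05 and passed (adjusted p = 0.048 in limma, where 9.87% of genes passed), with the litter block it did not (adjusted p = 0.064). The call was kept in 1 of 12 fits that also left out a library (adjusted p = 0.02 to 0.13). With a term for heterozygous embryos, all 3 of which are in the 8-library prefix, and no prefix term, the difference was -0.0604. Without untreated mutant 1, of the 4-library prefix, and with no prefix term it was 0.0385. In the 8 libraries alone the difference was 0.11 in log2, and it did not pass. The log2 difference was 0.03 in the untreated and 0.18 in the WAY litter of the 8-library prefix, and 0.31 in the untreated and 0.24 in the WAY litter of the 4-library prefix. Osteoblast markers, 6 in number, summed to 1050 to 1300 FPKM in mutants, against 711 to 945 FPKM in controls, of the 8-library prefix, and to 72.4 to 118 FPKM in mutants, against 101 to 119 FPKM in controls, of the 4-library prefix. The 9 skeletal muscle markers summed to 673 to 688 FPKM in mutants, against 193 to 581 FPKM in controls, of the 4-library prefix, and to 148 to 323 FPKM in mutants, against 195 to 255 FPKM in controls, of the 8-library prefix. Their part in the Pdgfc values was not tested.

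**Figure D2:**
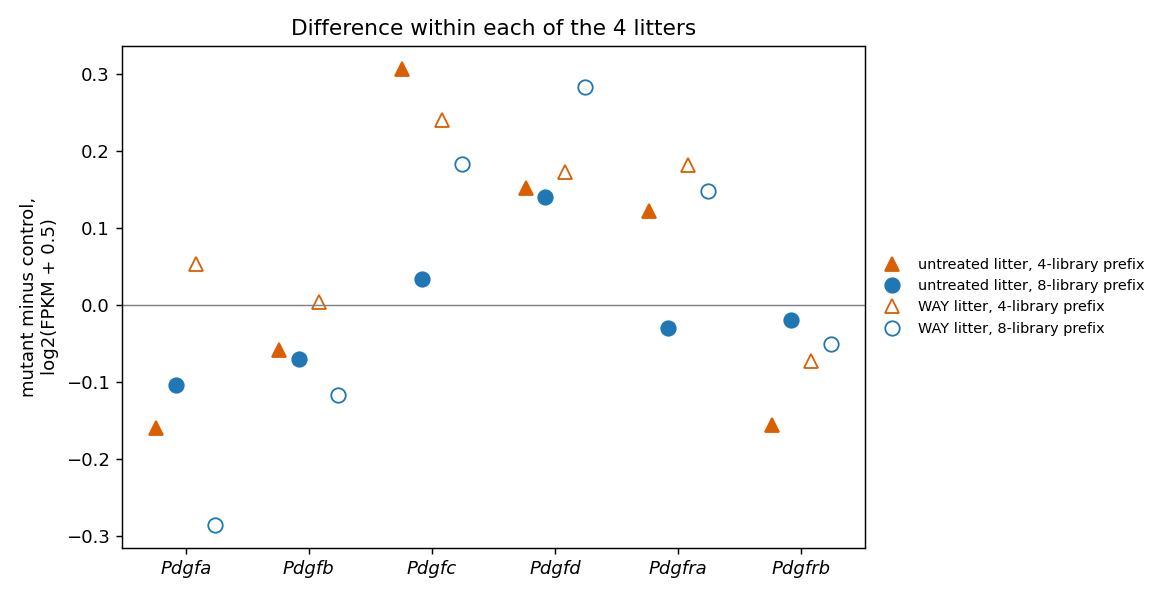
Log2 difference of the mean of mutants from the mean of controls (vertical axis, log2(FPKM + 0.5)) for each gene in each of the 4 litters; filled symbols are untreated and open symbols WAY litters, triangles the 4-library and circles the 8-library prefix. Pdgfc (0.03 to 0.31) and Pdgfd (0.14 to 0.28) lie above 0 and Pdgfrb (-0.16 to -0.02) below 0 in 4 of 4 litters, and Pdgfa, Pdgfb and Pdgfra on both sides of 0. The share of all genes with 1 sign in 4 of 4 litters was not counted.

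Pdgfd, which acts mainly through PDGFRβ, was the least abundant member. It had 3.23, 3.84 and 3.93 FPKM in untreated mutants, against 2.86, 3.39 and 3.56 FPKM in untreated controls. It had 3.14, 4.08 and 3.22 FPKM in WAY mutants, against 2.73, 2.61 and 3.19 FPKM in WAY controls, and the groups overlapped in both treatments. The difference over both treatments was 0.20 ± 0.09 (SE, n = 6 per side, 95% interval 0.01 to 0.38) with an adjusted p of 0.303 in limma and of 0.0926 with the litter block. Each of the 4 litters had a higher mean in mutants, by 0.14 to 0.28 in log2, and the share of all genes that do so was not counted.

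Pdgfb, the ligand by which endothelium recruits pericytes, had 5.05, 6.06 and 6.31 FPKM in untreated mutants, against 5.28, 6.38 and 6.64 FPKM in untreated controls. It had 5.59, 5.70 and 6.00 FPKM in WAY mutants, against 5.58, 6.66 and 6.12 FPKM in WAY controls. Mutants and controls overlapped with either treatment, and the lowest value of each group came from the 4-library prefix. The difference over both treatments was -0.07 ± 0.07 (SE, n = 6 per side, adjusted p = 0.69 in limma, 95% interval -0.23 to 0.09). The 8 endothelial markers summed to 126 to 147 FPKM in mutants and 135 to 143 FPKM in controls, and their part in the Pdgfb values was not tested.

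The second question is whether the Wnt agonist altered the family. Between WAY and untreated mutants 0 of 6 genes passed in limma, with 0 of them at an unadjusted p under 0.05, and 0 of 14107 genes passed (0%), with 133 at an unadjusted p under 0.05. The log2 differences were 0.00128 to 0.0903 in size, and the widest 95% interval was that of Pdgfc (-0.56 to 0.56). In the 8 libraries alone 1 of the 6, Pdgfrb (-0.16), stood at an unadjusted p under 0.05, and 0 passed. Between WAY and untreated controls 0 of 6 passed, with 0 at an unadjusted p under 0.05, and 0 of 14107 genes passed (0%), with 2225 at an unadjusted p under 0.05. Pdgfra had the largest difference here, -0.21 ± 0.13 (SE of 3 against 3 embryos, 95% interval -0.49 to 0.07, limma's adjusted p = 0.45). Pdgfra was 73.9 ± 10.8 FPKM in WAY controls and 84.9 ± 4.88 FPKM in untreated controls (SD, n = 3 each), with overlap. WAY control 2, a heterozygous embryo with 62.5 FPKM, lay below the others, and without it the difference was -0.0914. With the prefix as a term the Pdgfra difference of -0.21 had a 95% interval of -0.36 to -0.06 (adjusted p = 0.092 in limma). There 0 of 6 genes passed, where 375 of 14107 did. Pdgfra in that fit, and Pdgfra and Pdgfa in the 8 libraries alone, stood at an unadjusted p under 0.05 without passing. Within prefixes the difference of Pdgfra was -0.26 in the 8-library and -0.0963 in the 4-library prefix. Pdgfa had 0.13 ± 0.07 (SE, adjusted p = 0.4 in limma), made up of 0.24 in the 8-library and -0.0761 in the 4-library prefix. The oral epithelium markers summed to 1150 to 1350 FPKM in WAY controls, against 986 to 1040 FPKM in untreated controls, of the 8-library prefix, and their part in the Pdgfa values was not tested.

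Whether the mutant effect differed with treatment was tested by the interaction, in which 0 of 6 genes passed, with 0 at an unadjusted p under 0.05. Of all 14107 genes 0 passed (0%) and 704 had an unadjusted p under 0.05. The interaction was 0.14 ± 0.18 for Pdgfra (SE, adjusted p = 1 in limma, 95% interval -0.26 to 0.53) and 0.00628 to 0.101 in size for the other 5.

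**Figure D3:**
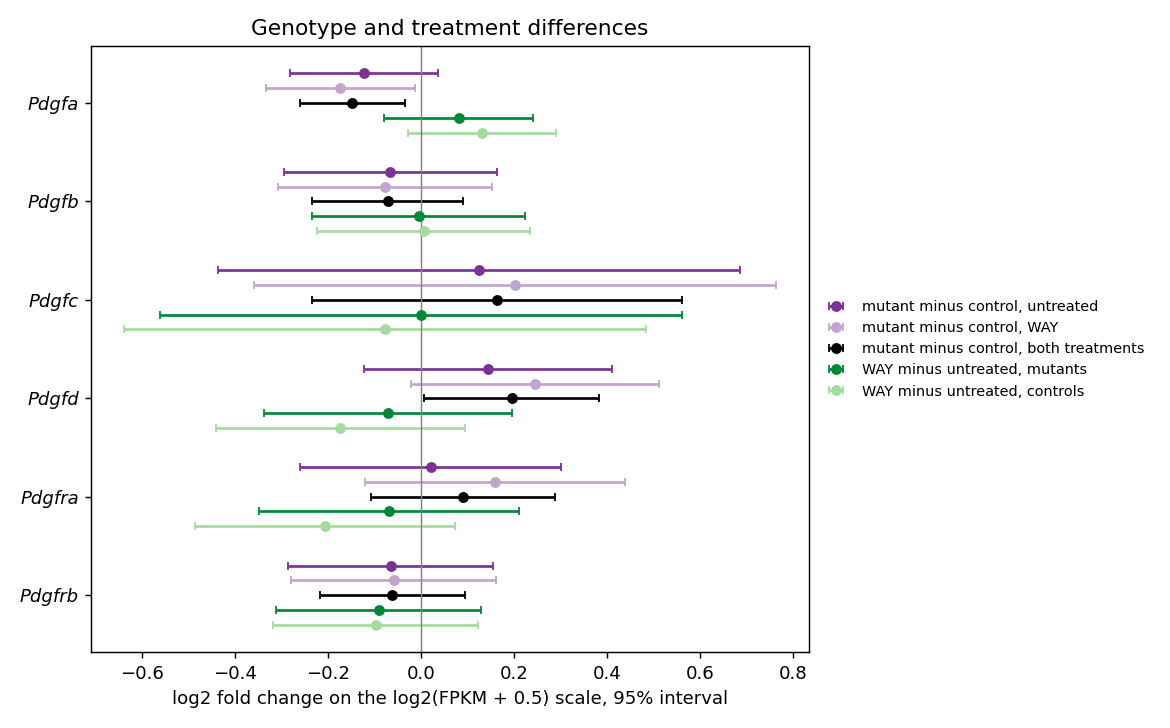
Log2 fold changes of the 6 genes (horizontal axis, log2(FPKM + 0.5) scale) with 95% intervals from limma for mutants against controls (untreated, WAY, both) and for WAY against untreated embryos (mutants, controls). Intervals of Pdgfc are the widest, reaching from -0.64 to 0.76, and those of Pdgfa the narrowest, from -0.33 to 0.29.

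The third question, set by the column names, is how the family differed between the prefixes once the groups were matched. With the prefix added to the group means, 4 of 6 genes differed in limma, 1 higher and 3 lower in the 8-library prefix. Of all genes tested 43.8% differed, 20.8% higher and 23% lower. Pdgfc differed most, with 14.3 ± 0.88 FPKM in the 8-library prefix (SD, n = 8) and 21.9 ± 2.55 FPKM in the 4-library prefix (SD, n = 4), a log2 difference of -0.59 ± 0.05 (SE, adjusted p = 7.6e-06). Pdgfra had 77.01 ± 6.71 FPKM in the 8-library and 91.8 ± 6.18 FPKM in the 4-library prefix, a difference of -0.25 ± 0.05 (adjusted p = 0.0025), and Pdgfrb had 49.4 ± 2.95 FPKM in the 8-library and 56.8 ± 2.8 FPKM in the 4-library prefix, a difference of -0.20 ± 0.04 (adjusted p = 0.0025). Pdgfb had 6.23 ± 0.329 FPKM in the 8-library and 5.38 ± 0.259 FPKM in the 4-library prefix, a difference of 0.20 ± 0.05 (adjusted p = 0.0062). The ranges overlapped for Pdgfra and did not for the other 3, and the share of all genes without overlap between prefixes was not counted. Pdgfd had a difference of 0.18 ± 0.07 (adjusted p = 0.052), and Pdgfa of 0.00147 ± 0.05 (adjusted p = 0.99, 95% interval -0.11 to 0.12).

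In FPKM, Pdgfa and Pdgfc, which activate the same receptor, thus changed places, with Pdgfc differing between prefixes and Pdgfa hardly. The controls of the 4-library prefix were near equal levels (Pdgfa 0.987 and 0.958 times Pdgfc). Pdgfa was 1.15 to 1.85 times Pdgfc in 8 of 8 libraries of the larger prefix and 0.709 to 0.987 times Pdgfc in 4 of 4 of the smaller. The within-group spread of Pdgfc was 0.351 on the log2 scale over both prefixes and 0.0706 within the 8-library prefix (medians over all genes 0.128 and 0.0937). Marker sums of several cell types differed between the prefixes. The 10 oral epithelium markers summed to 862 to 1350 FPKM in the 8-library and 343 to 555 FPKM in the 4-library prefix, and the 6 osteoblast markers to 711 to 1300 FPKM in the 8-library and 72.4 to 119 FPKM in the 4-library prefix. Most of the osteoblast sum in the 8-library prefix was Ibsp, with a mean of 728 FPKM there and 16.4 FPKM in the 4-library prefix. Runx2 had 23.2 FPKM in the 8-library and 18.3 FPKM in the 4-library prefix. The 9 mesenchyme markers summed to 500 to 606 FPKM in the 8-library and 643 to 726 FPKM in the 4-library prefix, the 8 endothelial markers to 126 to 147 FPKM in the 8-library and 128 to 137 FPKM in the 4-library prefix, and the 8 mural markers to 139 to 163 FPKM in the 8-library and 123 to 199 FPKM in the 4-library prefix. Mural markers went both ways, with 3 of 8 higher and 4 lower in the 8-library prefix. Of the mesenchyme markers 0 were higher and 6 lower, and of the endothelial markers 2 were higher and 1 lower. The 9 skeletal muscle markers summed to 148 to 323 FPKM in the 8-library and 193 to 688 FPKM in the 4-library prefix, and 7 of the 9 were lower and 1 higher in the 8-library prefix (median log2 difference -1.19). The 5 Schwann cell markers summed to 21.4 to 37.7 FPKM in the 8-library and 26.5 to 54.0 FPKM in the 4-library prefix, and 4 of 5 were lower. The 5 macrophage markers summed to 46.0 to 55.8 FPKM in the 8-library and 35.6 to 40.8 FPKM in the 4-library prefix, and 3 of 5 were higher. The sums did not overlap for epithelium, osteoblasts, mesenchyme and macrophages, and overlapped for the other 4 lists given here. None of these markers was at 0 throughout a prefix. Their part in the differences was not tested, and prefix and litter cannot be told apart.

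**Figure D4:**
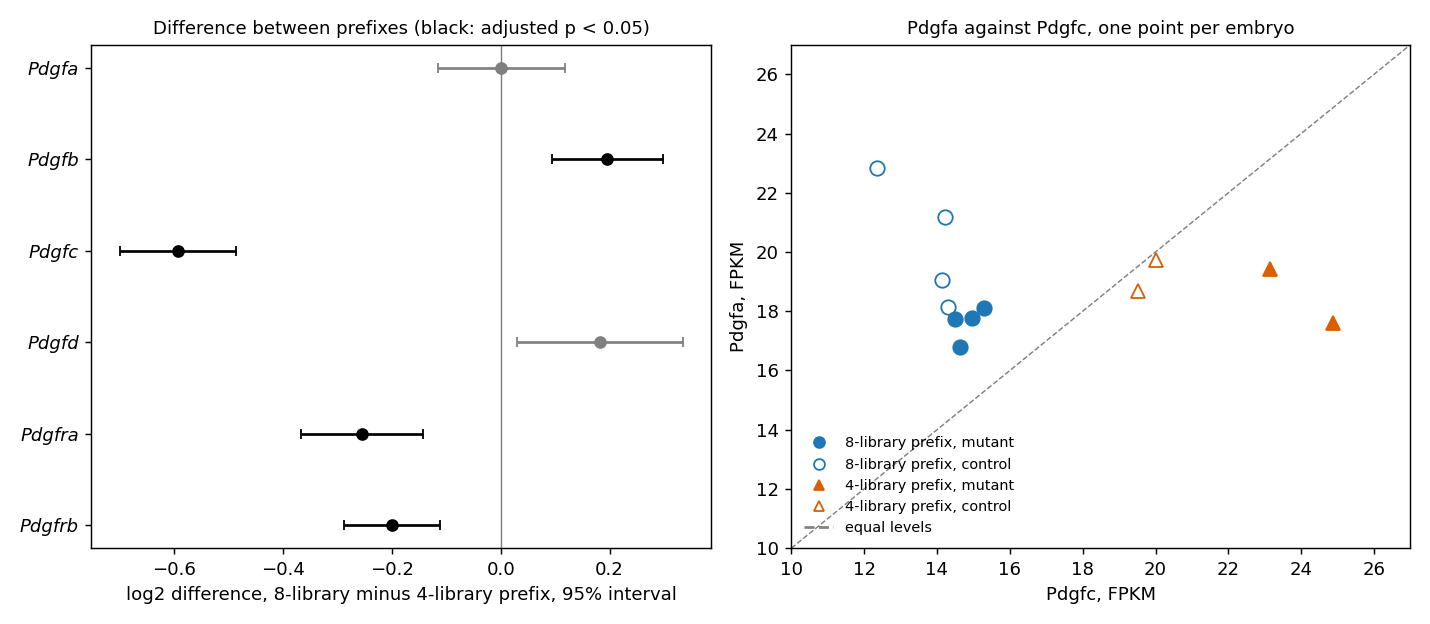
Left, log2 difference of the 8-library from the 4-library prefix for each gene with its 95% interval, black where the adjusted p passed 0.05. Right, FPKM of Pdgfa against Pdgfc in each embryo, with the line of equal levels; circles (8-library) lie above it and triangles (4-library) below it, and filled symbols are mutants.

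The rest of the pathway was read from a list of 72 genes, of which 71 were in the table and 67 were tested. The list also held 14 related ligands and receptors of other systems, such as VEGF and Kit, of which 12 were tested. Counts of pathway genes below include them. In untreated embryos 0 of 67 passed in limma (median log2 difference -0.00154, all genes -0.0143). The 2 with the smallest p were St14, which encodes the membrane protease matriptase (-0.44 ± 0.20, SE, adjusted p = 1), and Dusp6, an ERK phosphatase induced by receptor tyrosine kinase signalling (-0.51 ± 0.25, adjusted p = 1). In the 8 libraries alone Dusp6 fell in untreated mutants (-0.77 ± 0.07, adjusted p = 0.0056 in limma). In WAY embryos 1 of 67 passed, Pik3r2, a regulatory subunit of the PI3-kinase that PDGF receptors recruit. It was lower by 0.28 ± 0.05 in WAY mutants than in WAY controls (SE, adjusted p = 0.0499 in limma). Its mean was 33.3 FPKM in untreated mutants, 33.6 FPKM in untreated controls and 32.2 FPKM in WAY mutants. In WAY controls it was 39.4 FPKM, so the WAY controls stood apart. That call was kept in 1 of 12 fits that left out a library (adjusted p = 0.046 to 0.22 in limma), and it did not pass in the 8 libraries alone (adjusted p = 0.059).

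Over both treatments 0 of 67 passed, Pik3r2 having -0.15 ± 0.04 (adjusted p = 0.097). With the litter block 1 pathway gene was higher and 5 were lower over both treatments, and 3 were higher and 4 lower in WAY embryos, beside 8.24% and 10.1% of all genes. With the prefix as a term 7 of 67 passed over both treatments, 2 higher and 5 lower in mutants, against 9.87% of all genes. Kitl (0.32), the ligand of the related receptor Kit, was among those higher in mutants. St14 (-0.41), Dusp6 (-0.49), Pik3r2, and the VEGF-family ligands Pgf (-0.31) and Vegfd (-0.26) were lower. Kitl had means of 6.61 FPKM in untreated mutants, 6.1 FPKM in untreated controls, 6.25 FPKM in WAY mutants and 4.14 FPKM in WAY controls. Pgf had 4.85, 4.91, 4.81 and 7.38 FPKM in the same order, so for both genes the WAY controls stood apart. In the 8 libraries alone, where 3.25% of genes passed, 4 of 67 passed: Dusp6 (-0.72 ± 0.05, adjusted p = 0.00061), St14 (-0.49 ± 0.05, adjusted p = 0.0047), Pgf (-0.40 ± 0.08, adjusted p = 0.041) and Kitl (0.35 ± 0.07, adjusted p = 0.047). Dusp6 was lowered less over the 12 libraries (-0.49) than in these 8 (-0.72). The 4-library prefix, with 1 embryo per group, therefore showed almost no fall of Dusp6. The epithelial marker sums given for Pdgfa were lower in mutants in these comparisons too, and their part was not tested. With WAY treatment 0 of 67 passed in mutants, where Vegfa (0.34 ± 0.15) and Myc (-0.14 ± 0.09) had the smallest p (adjusted p = 1 each), and 0 of 67 in controls, where Pik3r2 had 0.23 ± 0.05 (adjusted p = 0.15). With the prefix as a term 2 of 67 were higher and 3 lower in WAY than in untreated controls, where 375 of 14107 genes passed. In the interaction 0 of 67 passed, Pik3r2 having -0.27 ± 0.07 (adjusted p = 0.95 in limma).

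Between prefixes 38 of the 67 listed genes passed, 19 in each direction, beside 43.8% of all genes. Among the 10 tested genes for ligand activation and binding, Sparc (0.98), Pcsk6 (1.49), Plau (0.54), St14 (0.43) and Furin (0.21) were higher in the 8-library prefix, and Plat (-0.48) was lower; they are named after their values were seen. Plat and Plau encode tissue and urokinase plasminogen activators, which in cell assays free PDGF-C and PDGF-D from their CUB domains, and Sparc binds PDGF-B. Of 11 negative regulators 5 were lower and 0 higher, and of 11 response genes 5 were higher and 1 lower. The 23 receptor-proximal adaptors and effectors had 4 higher and 10 lower, and the 12 related ligands and receptors had 5 higher and 2 lower.

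The genes most like each member over the 12 embryos, by Pearson's r after each prefix mean had been taken off log2(FPKM + 0.5), are given as a description. Pdgfra was followed most closely by Wnk3, Spin1 and Fzd3 (r = 0.98, 0.97 and 0.97), and Pdgfrb by Poldip3, Prrt3 and Susd5 (0.932, 0.92 and 0.898). Pdgfa was followed by Ly6d, Grasp and Wnt6 (0.95, 0.95 and 0.949), and Pdgfb by Psmb10 and Lrfn2 (0.906 and 0.905). Pdgfc was followed by Adamts9, Mecom and Sh3glb1 (0.949, 0.949 and 0.948), and Pdgfd by Calu, Snx13 and Ccdc93 (0.95, 0.942 and 0.941). Among the members themselves, by the same measure, Pdgfra went with Pdgfd (0.804) and Pdgfc (0.744) and against Pdgfa (-0.731), and Pdgfrb had 0.342 with Pdgfra. Litter, depth and tissue makeup differed between these libraries, and their part in the correlations was not tested. No other member was among the 3 closest genes of any member.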

How the data were processed

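Palatal shelves of 12 embryos were profiled from oligo(dT)-selected TruSeq libraries, per the labels' protocols. The authors deposited FPKM values for 19083 genes. Per the submitters' processing notes the tools were Novoalign 2.08.03 and DESeq2, and the build was mm10. For the annotation, counting tool, strand setting and gene filter the entry is: not given in the sources used here. Symbols were matched by identifier to GENCODE M21 for 18752 genes. Deposited values were whole multiples of 1 read within 0.001 read for 19082 genes (99.99%), which gave the depth of 36.8 to 49.8 M reads and the reads per gene.

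FPKM are not counts, so the 14107 genes that reached 1 FPKM in 3 or more samples were put on the log2(FPKM + 0.5) scale, which understates changes of low genes. The model (limma 3.58.1, R 4.3.3) held the 4 group means and a trended prior, Benjamini-Hochberg adjustment ran over all genes tested at 0.05, and p-values are two-sided and measure the spread between single embryos. Errors of differences are standard errors. The litter number was also fitted as a block (for treatment comparisons as a random effect with correlation 0.5). It comes from the titles and is not named a litter there, although the design mentions littermates. Deviations from group means correlated by 0.32 or more in 10 of 10 pairs of embryos with the same number in different groups (median 0.48), and as much (median 0.49) across numbers within a prefix. Other settings were pseudocounts of 0.1 and 1, no filter or 5 FPKM, median-ratio scaling, the prefix as a term or 1 prefix alone, a term for heterozygous embryos, and each library left out. The members and lists were chosen with earlier results of these data known. Named were the 6 members, pathway genes that passed or else the 2 with the smallest p, and the 3 closest genes of each member; some results that this rule would name are not reported here.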

Additional observations from a re-analysis of the deposited data

How the results depend on the processing

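Of 353 member values under the settings planned, 336 kept their direction and their side of the threshold, and of 504 with 1 library left out 462 did, among them all those of the genes called between prefixes. Pdgfd passed between prefixes with a term for heterozygous embryos (0.23, adjusted p = 0.041 in limma), and without WAY control 2 or WAY mutant 3; leaving out 1 library gave 4 to 5 members called there. With the prefix as a term 1 member (Pdgfc) passed over both treatments. Genes called over all genes in untreated, WAY and pooled mutant comparisons were 104, 1807 and 1393 with the prefix as a term, 53, 295 and 451 in the 8 libraries alone, 74, 1420 and 1163 with the replicate block, and 5, 22 and 24 with a term for heterozygous embryos. A filter at 5 FPKM gave 71 in the pooled comparison. With the prefix as a term 375 passed between WAY and untreated controls. Leaving out 1 library gave 0 to 12 in untreated, 10 to 79 in WAY and 42 to 131 in pooled mutant comparisons, 0 to 1 in WAY against untreated controls, and 4626 to 7403 between prefixes.

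Every value that changed sign failed the threshold in both fits. With a term for heterozygous embryos these were, in untreated mutants, Pdgfb (0.0858), Pdgfc (-0.174) and Pdgfra (-0.135), over both treatments Pdgfb (0.0425), Pdgfc (-0.0604) and Pdgfra (-0.0268), and between prefixes Pdgfa (-0.0266). In the 8 libraries alone they were Pdgfra in untreated mutants (-0.0291), Pdgfb in WAY against untreated controls (-0.0265) and the Pdgfrb interaction (-0.0323). With the replicate block they were Pdgfb (0.0141) and Pdgfc (-0.00425) in WAY against untreated mutants, and with median-ratio scaling Pdgfc there (-0.00922), Pdgfb in WAY against untreated controls (-0.0278) and the Pdgfb interaction (0.0133). Leaving out 1 library spanned, in untreated mutants, -0.158 to 0.0236 for Pdgfb, -0.126 to 0.285 for Pdgfc, -0.0709 to 0.079 for Pdgfra and -0.113 to 0.00153 for Pdgfrb, and in WAY mutants against controls -0.144 to 0.035 for Pdgfrb. For WAY against untreated it spanned -0.0937 to 0.0536 (Pdgfb), -0.198 to 0.252 (Pdgfc) and -0.176 to 0.0243 (Pdgfra) in mutants, and -0.0865 to 0.0664 (Pdgfb) and -0.257 to 0.0834 (Pdgfc) in controls. The interaction spanned -0.126 to 0.0145 (Pdgfa), -0.10 to 0.0819 (Pdgfb), -0.122 to 0.328 (Pdgfc), -0.00379 to 0.183 (Pdgfd) and -0.0796 to 0.0995 (Pdgfrb), and the prefix difference of Pdgfa -0.0741 to 0.0386. With the prefix as a term and 1 library left out, an alternative chosen after seeing the data, Pdgfra in untreated mutants spanned -0.0357 to 0.0656. The causes were not tested.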
